A study of Danio rerio with 68 samples.

Results

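Brain and skin of the same young zebrafish were compared by RNA-seq across all genes. The libraries were chosen by their labels alone: 6 brain and 6 skin libraries from control male zebrafish of 12 months, 12 of the 68 libraries of the series. The study asked how rotenone, an inhibitor of mitochondrial complex I, and age act on brain, liver and skin, and the untreated young fish used here are its baseline. The fish had been kept under standard conditions with the solvent DMSO added to the tank water for 3 weeks (brain157, brain158, brain159 and the skins of the same numbers) or 8 weeks (brain182, brain183, brain184 and the skins of the same numbers), and the sample characteristics list no treatment. The labels give no strain and do not say whether fish shared a tank. The number in a library's name was taken as the fish, and brain and skin of a number were compared within it.

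The nervous system and the epidermis both arise from the ectoderm of the embryo. The brain is built of neurons, which signal through synapses, and of glia, which in fish include radial glia that persist through adult life and oligodendrocytes that wrap axons in myelin. Fish skin is a living, mucus-covered stratified epithelium of keratinocytes held together by desmosomes, over a collagen-rich dermis with bony scales and pigment cells, and it is a barrier with its own immune cells.

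The brain libraries held 24142523 to 33536666 counts and the skin libraries 27494908 to 29923435 counts, with 25544 to 27186 genes detected in each. Mitochondrially encoded transcripts took 8.58 to 11% of brain counts and 5.05 to 7.60% of skin counts. Log2 levels correlated at 0.973 to 0.985 between brains and at 0.900 to 0.978 between skins, but only at 0.417 to 0.495 between a brain and a skin library. The labelled tissues matched their defining markers: summed pan-neuronal transcripts took 1.34 to 1.5% of brain counts and 0.0485 to 0.0732% of skin counts, and summed keratins took 0.0424 to 0.0493% of brain counts and 4.11 to 5.23% of skin counts.

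Several libraries nevertheless stood apart from the others of their tissue, through transcripts of another organ or through low levels of dermal, scale or muscle genes. In skin158, 60 testis and germ cell genes together took 0.323% of the counts, against 0.00742 to 0.00951% in the other 5 skins and 0.0239 to 0.0272% in the 6 brains. There, 54 of the 60 genes had their highest skin level, and 898 genes reached 1 count per 1000000 (CPM) and over 10 times the level of every other skin. The testicular hormone gene insl3 stood at 347 CPM of the library total in that skin, against at most 0.493 CPM in the others, and the germ cell genes alone took 0.226% of its counts. Most of the brains' share of this list came from dkk3a and TDRKH, with brain medians of 121 and 58.2 CPM of the library total. The library skin157 held liver transcripts: 47 hepatocyte genes, a list added after this was seen, took 2.65% of its counts, against 0.128 to 0.209% in the other skins, 0.0341 to 0.0722% in brains and 20.9 to 28.8% in 5 livers of the same fish. The transferrin gene tfa stood at 5024 CPM of the library total there, against 3.77 to 28.9 CPM in the other skins, and the liver fatty acid binding protein gene fabp10a at 1611 CPM, against 1.84 to 11 CPM. The list includes rbp4, at 1573 CPM in skin157 and 1177 to 1875 CPM in the other skins, most of their share. In brains rbp4 stood at 75.4 to 227 CPM and cp, also in the list, at 149 to 431 CPM. The library skin159 was low in collagens and dermal matrix, at 0.496% of counts against 2.1 to 4.42% in the others, and in bone and scale genes, at 0.118% against 0.247 to 0.479%. The library skin183 was lowest in skeletal muscle transcripts, at 1.27% against 2.17 to 4.82%. In brain158, genes of the pituitary list took 0.117% of counts, against 0.0208 to 0.0278% in the other brains, and photoreceptor genes of eye and pineal 0.0743%, against 0.00504 to 0.00626%. Of the 45 genes in the latter list, 25 had their highest brain level in brain158, 16 of them at over 10 times every other brain. The opsin genes were divided: opn1lw1 stood at 1.32 CPM of the library total, against at most 0.119 CPM, but rho had no count in brain158. The crystallin genes of that list were not above the other brains. The pituitary list includes the granule protein gene chga, at 194 CPM of the library total in brain158 and 196 to 236 CPM in the other brains, most of their share. All 3 skins with the clearest departures came from the 3-week fish. Several results that rest on skin157, brain158 or skin158 are given with and without their fish, and fewer for skin159 and skin183.

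**Figure D1:**
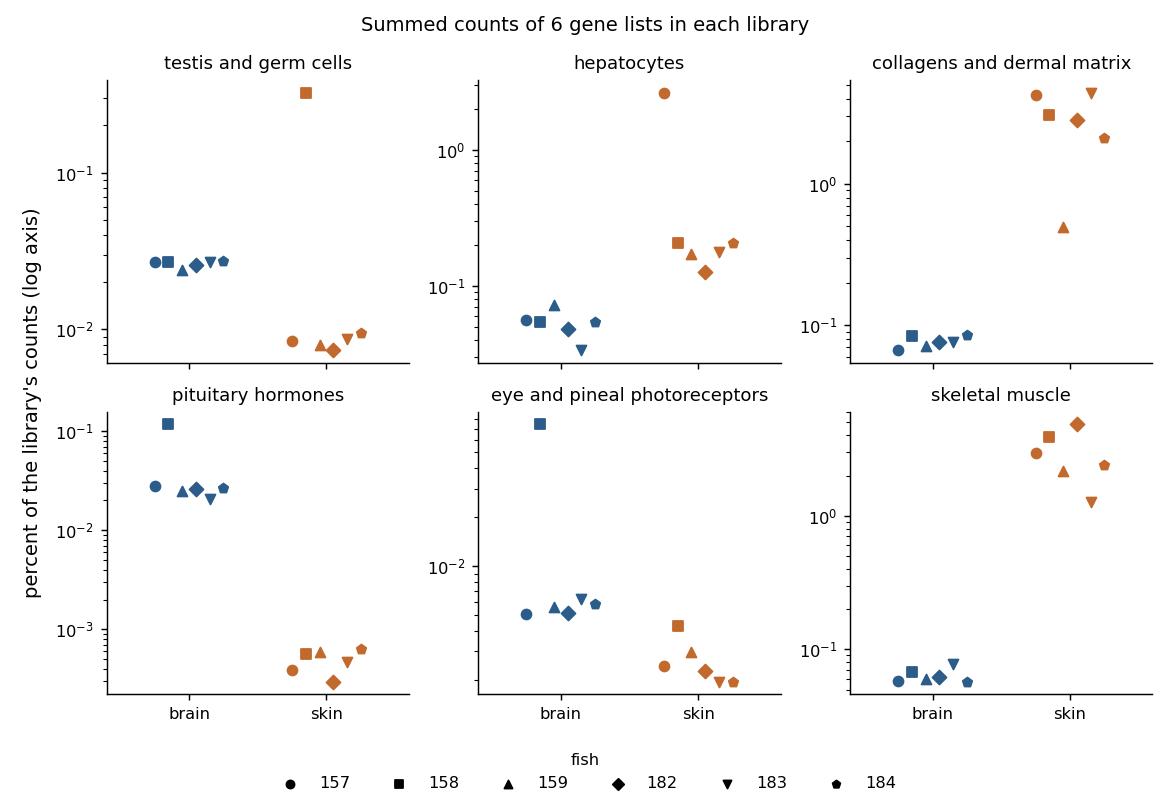
Percent of each library's counts (log axis) taken by 6 gene lists in the 6 brain and 6 skin libraries, 1 point per library and 1 symbol per fish. The fish of brain158 and skin158 stands alone for testis genes in skin and for pituitary and photoreceptor genes in brain, skin157 for hepatocyte genes in skin and skin159 for collagens.

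Most of the transcriptome differed between brain and skin, with near-equal numbers of genes on either side after scaling. Of 22435 genes tested, 9066 (40.4%) were higher in brain and 8433 (37.6%) higher in skin, which makes 78.0% called in either direction (edgeR's quasi-likelihood test with fish as a block, Benjamini-Hochberg adjusted p under 0.05). Because so many genes differed, a gene is here called only where its difference exceeded 2-fold by a test against that size. By that stricter rule 5477 genes (24.4%) were higher in brain and 5562 (24.8%) higher in skin, 49.2% in all. These shares are the background for the counts of every gene list below. The near-even split depends on the scaling, which sets the centre of the fold changes. With library totals alone, 6126 genes were called higher in brain and 5059 higher in skin past 2-fold. In bulk tissue, fewer cells of a type and less RNA per cell cannot be told apart. The median log2 fold change, brain over skin, was 0.08 over all genes, the median absolute change was 1.33, and estimates passed 256-fold for 345 genes toward brain and 370 toward skin. There were 1375 genes at 1 CPM or more in every brain and under it in every skin, 1465 with the reverse pattern, and 14119 at that level in all 12 libraries. Within the 3-week fish 4553 and 4678 genes were called higher in brain and in skin, and within the 8-week fish 5554 and 5777. Without brain158 and skin158 the numbers were 5694 and 5783, and without brain157 and skin157 they were 5398 and 5432, with no gene called in the opposite direction in any of these fits.

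The tissue difference recurred in older fish. In 7 control fish of 36 months, none of whose libraries was used above, 49.0% of 22070 tested genes were called, 5643 (25.6%) higher in brain and 5179 (23.5%) higher in skin. Of the 5369 genes called higher in young brain and tested there, 5035 (93.8%) were called the same way, as were 4687 (88.6%) of 5291 called higher in young skin, and none was called the opposite way. Fold changes of the 2 ages lay within 1 log2 unit for 90.7% of the 21771 genes tested in both, with a median absolute difference of 0.29. The ages share no library but were processed as 1 study.

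Many of the 12 largest differences toward brain were in genes of neurons and glia. The 12 each way were taken among called genes with a plain symbol and a mean of at least 10 CPM. Their direction was also the same in all 6 fish. CPM values from here on are counts per 1000000 after TMM scaling (edgeR's adjustment of library totals), each given as lowest, highest and median over 6 libraries. The ± is a standard error of a log2 fold change, brain over skin, worked back from that estimate and edgeR's F statistic. It can be too small for genes with almost no counts in 1 tissue. The largest belonged to epd, ependymin, a secreted glycoprotein of the fish brain, which had 4073 to 7865 CPM in brain (median 6606), against 0.114 to 4.43 CPM in skin (median 0.356). Its log2 fold change was 13.44 ± 0.74 (adjusted p = 1.72e-06 for a difference past 2-fold), and its median of 8173 RPKM (the authors' reads per kilobase, scaled to the library) in brain, against 0.360 RPKM in skin, placed it among the 10 most abundant brain transcripts. No brain and skin library overlapped for it, although skin184 was well above the other skins. The GABA transporter gene SLC6A11 followed, with 68.4 to 133 CPM in brain (median 112), against 0 to 0.0668 CPM in skin (median 0), a log2 fold change of 12.64 ± 0.35, and of 14.51 without brain158 and skin158. The astroglial glutamate transporter gene slc1a2b had 1378 to 1669 CPM in brain (median 1585), against 0.0758 to 1.57 CPM in skin (median 0.261), a log2 fold change of 12.00 ± 0.66. The other 9 of the 12 largest were scrt1a, barhl1b and neurod, which encode neural transcription factors, npas4a, an activity-induced one, the somatostatin genes sst1.1 and sst3, hapln4, of the matrix around neurons, EEF1A2, a translation elongation factor of neurons and muscle, and snap25a. Their log2 fold changes ran between 11.07 and 12.14. Brain and skin did not overlap for any of them, which is near to given for the largest changes of 1 direction in all 6 fish. In the 36-month fish all 12 lay between 9.29 and 13.47.

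The machinery of neurons and synapses was higher in brain as a block. Of 41 tested pan-neuronal genes 39 were called higher in brain and 1 in skin, with a median log2 fold change of 6.37, and of 42 genes of synaptic vesicle release 39 and 1, with a median of 7.09, beside 24.4% and 0.08 for all genes. The SNARE gene snap25a, which drives vesicle fusion, had 3950.0 to 4807 CPM in brain (median 4224), against 0.878 to 8.25 CPM in skin (median 1.71), a log2 fold change of 11.07 ± 0.56. Its copy snap25b had 578 to 730.3 CPM in brain (median 645), against 0.114 to 3.59 CPM in skin (median 0.281), and the fusion partner stxbp1a 1195 to 1394 CPM in brain (median 1269), against 1.76 to 4.85 CPM in skin (median 2.45). These 3 genes were separated between tissues by more than the whole spread of either. The synuclein gene sncgb, of presynaptic terminals, had 1683 to 2217 CPM in brain (median 1903), against 0.530 to 4.77 CPM in skin (median 1.22), the stathmin gene stmn2a, of growing axons, differed by 10.36 ± 0.71, and the synuclein gene sncb by 9.73 ± 0.86, both on the log2 scale. Against the rest of these lists, thy1, a surface glycoprotein of neurons and lymphocytes in mammals, was higher in skin at -5.18 ± 0.19, as was nsfb at -1.37 ± 0.09, while its copy nsfa stood at 8.02 ± 0.27. These list members beyond the named-gene rule, here and below, were chosen after their values were seen.

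**Figure D2:**
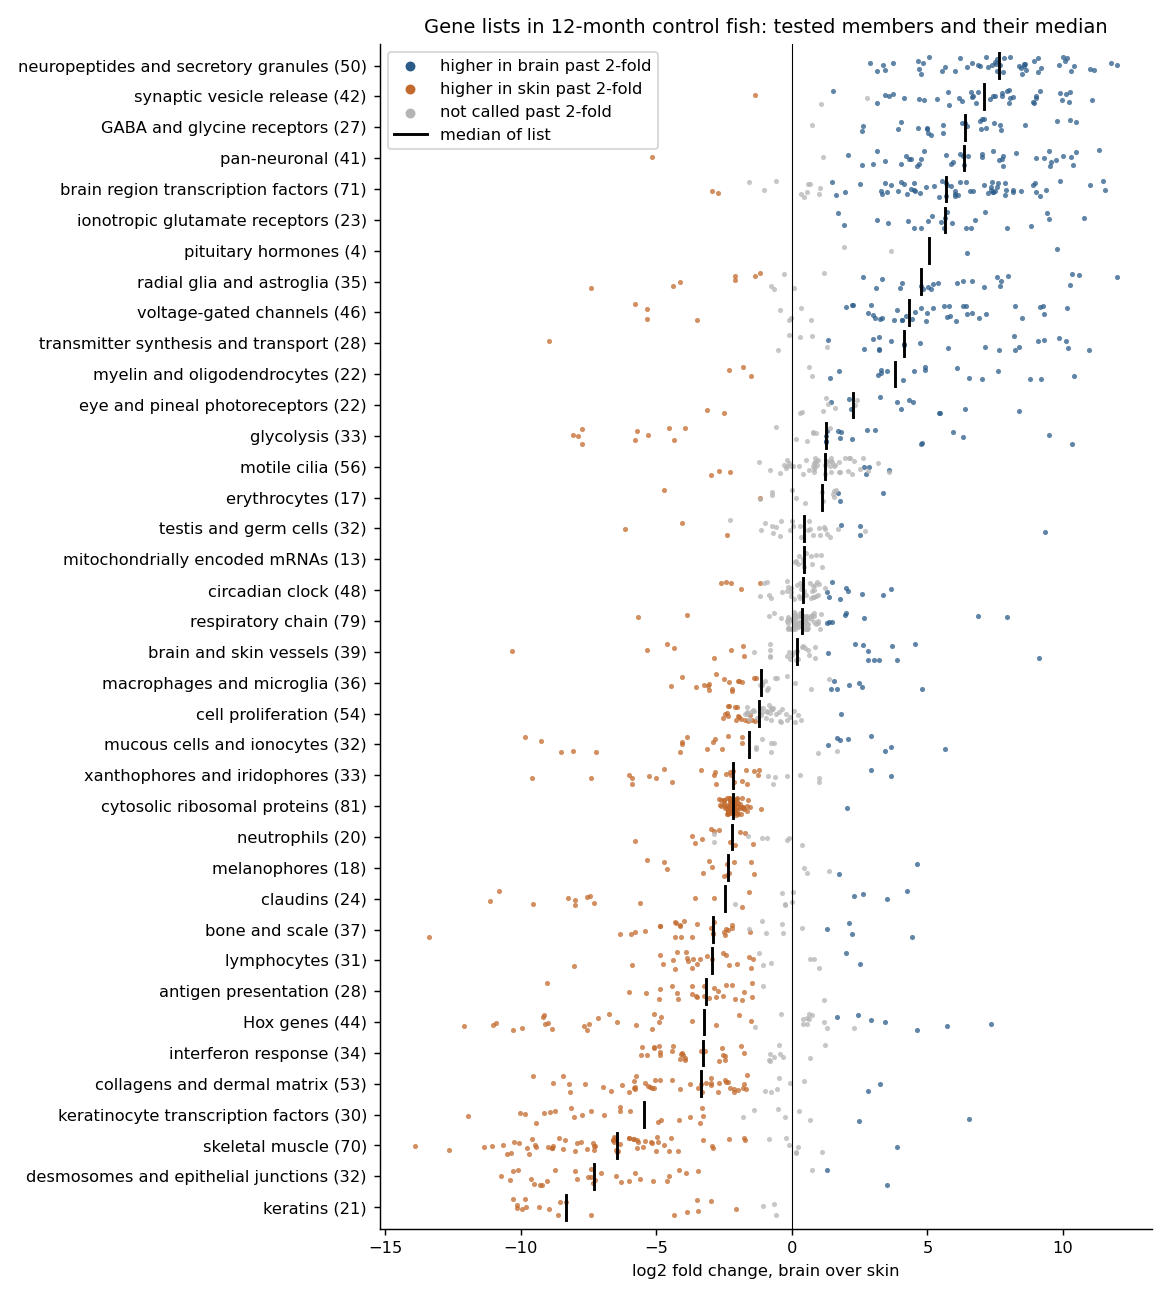
Log2 fold change, brain over skin, of every tested member of 38 gene lists (number tested in brackets), 1 point per gene, coloured by its call past 2-fold, with the list's median as a black bar. Neuronal, synaptic and neuropeptide lists lie right of 0, keratin, junction, muscle and matrix lists left of it, and ribosomal proteins form a tight group near a median of -2.19.

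Receptors and channels followed the same direction. All 23 tested genes of ionotropic glutamate receptors were called higher in brain (median 5.66), as were 26 of 27 GABA and glycine receptor genes (median 6.39) and none in skin. The NMDA receptor gene grin1b had 328 to 394 CPM in brain (median 369), against 0 to 0.878 CPM in skin (median 0.120). Its copy grin1a was also high in brain, with 1116 to 1418 CPM (median 1333), but it was also detected in all 6 skins, with 17.6 to 135 CPM (median 55.6), a log2 fold change of 4.52 ± 0.42 against 10.78 ± 0.71 for grin1b. The GABA-A receptor gene gabrb2 differed by 10.49 ± 0.57, whereas gabrd, a subunit of receptors outside the synapse, still had 9.12 to 14.1 CPM (median 11.3) in skin and differed by 5.15 ± 0.11. Of 46 voltage-gated channel genes 37 were called higher in brain and 4 in skin, with a median of 4.32. The 4 were the skeletal muscle sodium channel genes scn4aa and scn4ab and the muscle calcium channel genes cacna1sa and cacna1sb, with log2 fold changes between -5.79 and -3.49. The potassium channel gene kcnc3a, of fast-firing neurons, had 501 to 617 CPM in brain (median 582), against 0.467 to 2.84 CPM in skin (median 0.742).

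Genes that make or move transmitters were mostly brain-high, with 22 of 28 called toward brain, 1 toward skin and a median of 4.13. The GABA-synthesising enzyme gene gad1b had 781 to 997 CPM in brain (median 810.2), against 0.117 to 2.64 CPM in skin (median 0.649), a log2 fold change of 10.19 ± 0.64. Among transporters into vesicles were slc32a1 for GABA at 10.96 ± 0.57, slc18a3a for acetylcholine at 10.09 ± 0.41 and slc17a7 for glutamate at 9.84 ± 0.48. Called toward skin was another gene with the symbol slc6a11, at -8.97 ± 0.18, opposite in sign to SLC6A11, and the reads of such like-named copies could have been divided by the counting. The serotonin transporter gene slc6a4a at -0.52 ± 0.21 and the noradrenaline transporter gene slc6a2 at 0.32 ± 0.26 were not called.

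Of 57 neuropeptide and secretory granule genes 50 passed the filter on low counts, which a gene high in 1 tissue alone can pass and a gene low in both cannot. All 50 were called higher in brain, with the highest median of the 38 lists, 7.63. The somatostatin gene sst1.1 had 28.7 to 68.1 CPM in brain (median 39.1), against 0 to 0.0402 CPM in skin (median 0), and sst3 had 96.0 to 144 CPM in brain (median 106), against 0 to 0.120 CPM in skin (median 0.0334). The hypothalamic peptide genes oxtl, a fish relative of oxytocin, differed by 10.98 ± 0.88 on the log2 scale, the melanin-concentrating hormone gene pmchl by 10.39 ± 0.42, and the appetite peptide gene npy by 9.08 ± 0.54. The vasopressin relative avpl had no count in any skin and, from a floor of 3 counts per library, was at least 48.9-fold higher in brain. Genes with no count in any skin, set at such bounds, gave list medians of 7.54 here, 6.27 for GABA and glycine receptors and 5.67 for the factors of brain regions described next. The granule protein gene scg2b had 717 to 1102 CPM in brain (median 890.2), against 0.0798 to 4.89 CPM in skin (median 0.317). Less far apart was cpe, carboxypeptidase E, a processing enzyme of many endocrine cells, with 1418 to 1521 CPM in brain (median 1461), against 108 to 209.7 CPM in skin (median 147), still without overlap. Of 13 genes in the pituitary list, which also holds the granule protein gene chga and the transcription factor genes pou1f1 and tbx19, only 4 passed the filter on low counts. The 2 called were prl2 and chga. The gonadotropin subunit gene cga had 2.49 to 371 CPM in brain (median 3.22), against 1.44 to 2.2 CPM in skin (median 1.74), but without brain158 and skin158 its log2 fold change was 1.07 rather than 1.93, and lhb overlapped between the tissues. In brain158 the hormone genes gh1, pomca and smtla stood at 146, 86.5 and 59.5 CPM of the library total, against at most 5.34, 2.86 and 0.0314 CPM in the other brains. Of the 13 genes, 10 had their highest brain level in brain158, 7 of them at over 10 times every other brain. The gene prl2 went the other way, at 3.96 CPM in brain158 against 7.46 to 45.6 CPM in the other brains. Whether pituitary tissue in that sample had a part in any result was not tested beyond leaving the fish out. Of 22 photoreceptor genes 12 were called toward brain and 2 toward skin, and 13 and 2 without brain158 and skin158, with medians of 2.25 and 1.98. Among them gngt1 differed by 5.47 ± 0.70 with brain158 and skin158 and by 4.03 without them.

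Transcription factors and markers of brain regions were called higher in brain for 59 of 71 and in skin for 2, with a median of 5.69. The cerebellar gene cbln12, a secreted cerebellin, had 114 to 373 CPM in brain (median 238), against 0 to 0.768 CPM in skin (median 0), a log2 fold change of 11.01 ± 0.69 and 13.99 without brain158 and skin158. The zinc finger gene zic1, of dorsal brain, had 264 to 611 CPM in brain (median 431), against 3.67 to 7.56 CPM in skin (median 6.91). The forebrain and midbrain homeobox gene otx2 differed by 9.0 ± 0.22, the LIM homeobox gene lhx5 by 9.15 ± 0.62, the eye and brain gene pax6a by 7.34 ± 0.88, and neurod, of cerebellar granule and other neurons, had 258 to 615 CPM in brain (median 403), against 0 to 0.764 CPM in skin (median 0.0200). The 2 called toward skin were atoh1a at -2.95 ± 0.48, which also marks sensory cells of the skin and lateral line, and dlx2b at -2.73 ± 0.26. The parvalbumin gene pvalb7, of Purkinje cells, overlapped between brain and skin at 0.55 ± 0.21.

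Myelin was a further strong brain signal. Of 22 tested genes of myelin and oligodendrocytes 17 were called higher in brain and 3 in skin, with a median of 3.81. Myelin basic protein mbpa, which compacts the sheath, had 7039.9 to 12019 CPM in brain (median 10979), against 41.3 to 76.2 CPM in skin (median 49.3), a log2 fold change of 7.60 ± 0.21, and at a median of 4432 RPKM was among the 10 most abundant brain transcripts. The myelin proteolipid gene plp1b had 733 to 1485 CPM in brain (median 1303), against 14.1 to 23.3 CPM in skin (median 18). Myelin transcripts were also detected in skin, where Schwann cells wrap nerves in fish as in mammals: mpz, whose mammalian product is the main adhesion protein of peripheral myelin, had 1106 to 1762 CPM in brain (median 1657), against 54.6 to 102 CPM in skin (median 65.3). The oligodendrocyte transcription factor genes olig1 and olig2 differed by 10.40 ± 0.42 and 9.19 ± 0.46. The 3 higher in skin were cnp at -2.32 ± 0.13, erbb3b at -1.82 ± 0.15, a neuregulin receptor of Schwann cells, and PLLP at -1.53 ± 0.24.

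Radial glia and astroglia genes were divided, with 23 of 35 called toward brain, 7 toward skin and a median of 4.77. The glial filament gene gfap differed by 7.98 ± 0.41, the glutamate transporter gene slc1a3b by 10.27 ± 0.52, and cyp19a1b, the brain aromatase of fish radial glia, by 6.63 ± 0.45. The opposite extreme was ptgdsb, a lipocalin-type prostaglandin D synthase placed in this list for its role in mammalian brain, which had 50.0 to 90.9 CPM in brain (median 77.4), against 9135 to 16114 CPM in skin (median 13549) and, at a median of 11725 RPKM in skin against 83.3 RPKM in brain, was the most abundant skin transcript of nuclear genes. Its neighbour in name, ptgdsb.2, had 177 to 309 CPM in brain (median 260.1), against 2532 to 6107 CPM in skin (median 4731). The list's summed share of counts was 1.2 to 1.42% in brain, against 1.40 to 2.25% in skin, and these ranges overlapped. In every skin, ptgdsb alone made up most of that share.

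Toward skin, the 12 largest differences by the same rule joined contractile, mineralised and epithelial genes. Some genes outside that rule, such as hoxc10a at -12.11, had larger changes than some of the 12. The slow myosin heavy chain gene smyhc2 had 0 to 0.0721 CPM in brain (median 0.0154), against 137 to 1253 CPM in skin (median 294), a log2 fold change of -13.91 ± 0.53 (adjusted p = 2.96e-07 past 2-fold). The gene scpp7, of a secretory calcium-binding phosphoprotein family tied to mineralised tissue, had 0 to 0.0721 CPM in brain (median 0.0289), against 10.19 to 789 CPM in skin (median 324), a log2 fold change of -13.40 ± 0.29, and its lowest skin value was that of skin159. Others were the muscle genes smyhc1, MYL4, myhc4 and atp2a1l, the scpp6 and osteomodulin (omd) genes of bone, CYTL1, a secreted cytokine-like protein, itln4, a lectin, cldni, a claudin, and aqp3b, a water and glycerol channel. Brain and skin did not overlap for any of the 12, which is again near to given by how they were chosen. Among them cldni had 0.361 to 0.642 CPM in brain (median 0.582), against 906 to 1417 CPM in skin (median 1235).

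Keratins, the structural proteins of the epidermis, were higher in skin. Of 21 tested keratin genes 18 were called higher in skin and none in brain, with a median log2 fold change of -8.35, beside 24.8% and 0.08 for all genes. The keratin gene krt5, of basal epidermis in mammals, had 8.79 to 48.9 CPM in brain (median 27.9), against 18113 to 29933 CPM in skin (median 24669), a log2 fold change of -10.13 ± 0.58, and krt91 had 7.88 to 24.1 CPM in brain (median 18.2), against 12630.0 to 20029 CPM in skin (median 18487). Both were among the 10 most abundant skin transcripts, at medians of 9168 and 5223 RPKM. Of keratins of simple epithelia, krt8 stood at -3.88 ± 0.12 and krt18 at -2.05 ± 0.18. Another of those 10 was icn, an S100-type calcium-binding protein gene, with 24.3 to 41.6 CPM in brain (median 35.2), against 2597 to 5427 CPM in skin (median 4199.9).

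Junction genes ran in parallel. Of 32 genes of desmosomes and epithelial junctions 29 were called toward skin and 2 toward brain (median -7.30). The adhesion gene EPCAM had 0.222 to 3.17 CPM in brain (median 0.771), against 672 to 1173 CPM in skin (median 998), and the desmosomal cadherin gene dsg2 had 2.57 to 4.47 CPM in brain (median 3.99), against 1158 to 2628 CPM in skin (median 1457). The E-cadherin gene cdh1 differed by -10.39 ± 0.43, and the hemidesmosome collagen gene col17a1b by -9.50 ± 0.31. Toward brain were itga6a at 3.52 ± 0.15 and DST at 1.31 ± 0.09. Claudins, which seal tight junctions, were divided: 14 of 24 were called toward skin, with cldnb at -10.79 ± 0.56, and 4 toward brain, among them cldn19 at 2.30 ± 0.15, cldn5a, of the brain's vessel barrier, at 2.62 ± 0.20, and cldnk, of myelin in fish, at 3.52 ± 0.20.

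Among 30 keratinocyte transcription factors 22 were called toward skin and 2 toward brain, with a median of -5.46. The epidermal master regulator tp63 had 1.24 to 2.49 CPM in brain (median 2.06), against 269 to 613 CPM in skin (median 442), a log2 fold change of -7.73 ± 0.23. The forkhead gene foxq1a had 0 to 0.202 CPM in brain (median 0.0944), against 41.3 to 109 CPM in skin (median 73.0), and the grainyhead gene grhl2a 5.42 to 9.87 CPM in brain (median 6.67), against 109.9 to 309.6 CPM in skin (median 249). The 2 toward brain were tfap2b at 6.55 ± 0.25 and gata2a at 2.48 ± 0.19, both also active in the nervous system. Genes of mucous cells and ionocytes were mixed, 16 of 32 toward skin and 8 toward brain: the mucin genes muc5.2 and muc5.1 differed by -9.83 ± 0.35 and -8.07 ± 0.46, and the ionocyte factor foxi3a by -4.06 ± 0.58, whereas the sodium pump subunit gene atp1b1b, with 564 to 764 CPM in brain (median 706), against 5.91 to 20.6 CPM in skin (median 14.4), and proton pump genes such as atp6v1aa at 2.91 ± 0.11, which neurons also use, were higher in brain.

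**Figure D3:**
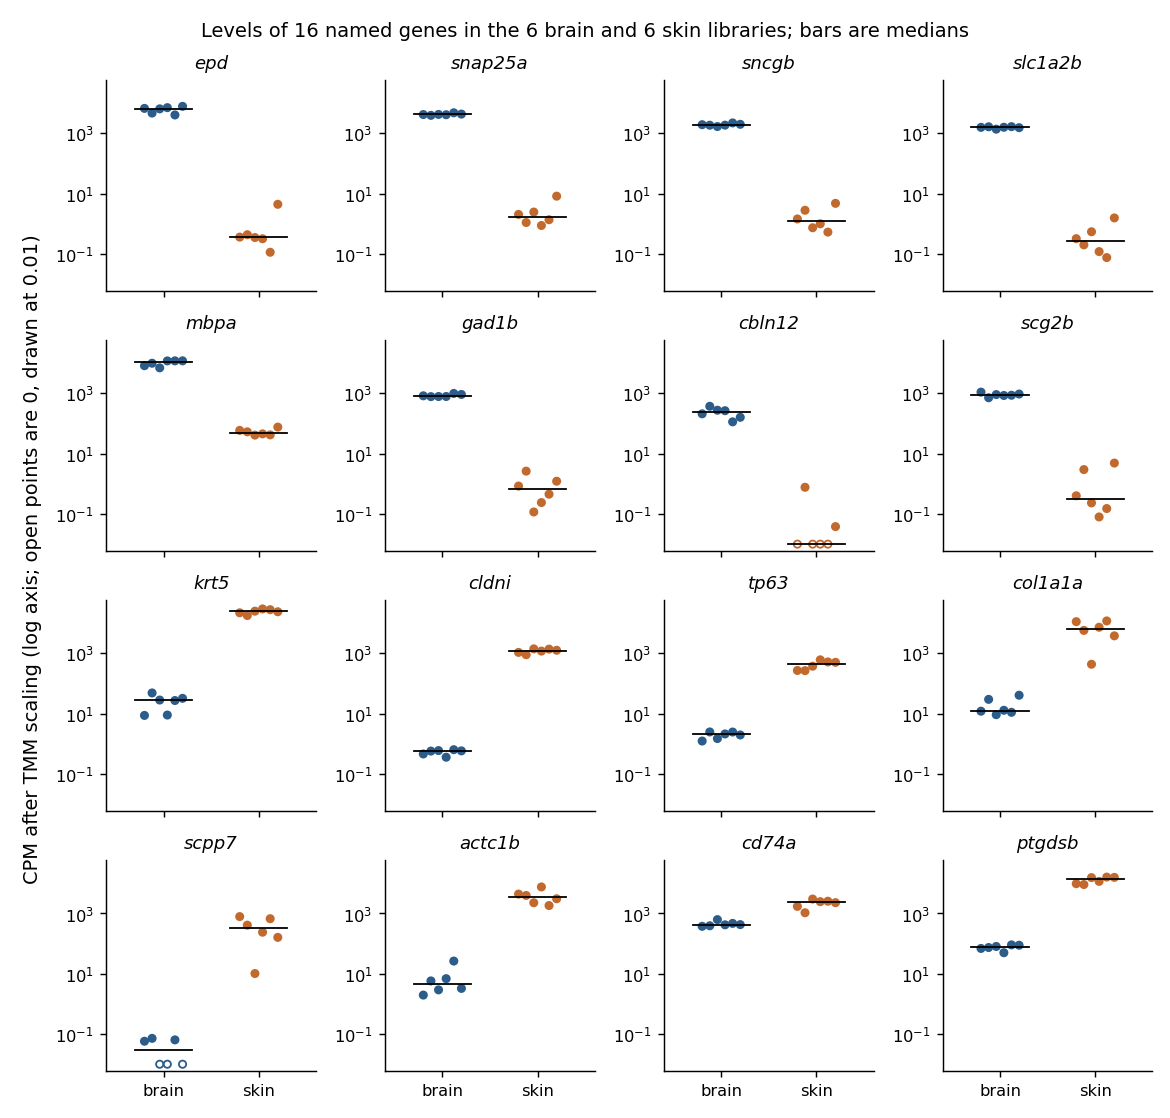
Levels of 16 named genes in CPM after TMM scaling (log axis) in each of the 6 brain and 6 skin libraries, with medians as bars and zeros drawn open at 0.01. In all 16 the brain and skin points are separate, and the low skin point of scpp7 and col1a1a is skin159.

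Genes of dermis, bone and scale were also higher in skin. Of 53 collagen and dermal matrix genes 45 were called toward skin and 2 toward brain (median -3.34). The type I collagen gene col1a1a had 9.30 to 41.1 CPM in brain (median 12.6), against 437 to 11965 CPM in skin (median 6598), and col1a1b had 6.27 to 37.8 CPM in brain (median 10.8), against 468 to 15018 CPM in skin (median 8022). In both the lowest skin, skin159, was over 10 times above the highest brain. Without brain159 and skin159, col1a1a differed by -8.68 and col1a1b by -9.34, against -8.17 and -8.82 with all 6 fish. The matricellular gene postnb differed by -9.54 ± 0.45 and the proteoglycan gene lum by -8.43 ± 0.26, while tnc at 2.82 ± 0.17 and the cartilage collagen gene col2a1a at 3.25 ± 0.96, whose libraries overlapped between tissues, were higher in brain. Of 37 bone and scale genes 27 were called toward skin and 4 toward brain (median -2.90), with sparc, a collagen-binding matrix protein, at 77.3 to 119.6 CPM in brain (median 115), against 385 to 3378 CPM in skin (median 2201), the osteoblast factor sp7 at -4.86 ± 0.33 and the osteoclast protease gene ctsk at -4.88 ± 0.18.

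Pigment cell genes were higher in skin by smaller amounts. Of 18 melanophore genes 13 were called toward skin and 2 toward brain (median -2.35), and of 33 xanthophore and iridophore genes 24 and 2 (median -2.19). Tyrosinase, tyr, the first enzyme of melanin synthesis, differed by -5.36 ± 0.45, pmela, of the melanosome, by -4.61 ± 0.27, and the iridophore purine enzyme gene pnp4a by -5.92 ± 0.35. The neural crest factor sox10 went the other way, with 28.5 to 38.4 CPM in brain (median 33.2), against 6.19 to 13.1 CPM in skin (median 10.4), and is also made by oligodendrocytes. The purine synthesis genes paics and adsl, used by all cells and more by iridophores, differed little, at -1.26 ± 0.10 and -1.2 ± 0.13, and adsl was not called past 2-fold in 4 of the 6 fits that left out 1 fish (edgeR's adjusted p 0.0114 to 0.143, against 0.0453 with all 6).

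Skeletal muscle transcripts were abundant in all 6 skins, at 1.27 to 4.82% of counts, against 0.0574 to 0.0780% in brains. Of 70 tested genes 62 were called toward skin and 1 toward brain, with a median of -6.46. The actin gene actc1b had 1.97 to 26.4 CPM in brain (median 4.54), against 1831 to 7580.1 CPM in skin (median 3518), the parvalbumin gene pvalb4 0.780 to 12.0 CPM in brain (median 2.00), against 974 to 3724 CPM in skin (median 1801) and the muscle creatine kinase gene ckma 1.04 to 8.09 CPM in brain (median 2.01), against 1044 to 3289 CPM in skin (median 2372). Within brain these were highest in brain183, and skin183 was the lowest skin for each of them. Without brain183 and skin183, actc1b differed by -10.01, pvalb4 by -10.12 and ckma by -10.60, against -9.49, -9.58 and -10.08 with all 6 fish. How much body wall muscle each skin sample held, and its part in the other skin values, was not tested.

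Immune genes lay mainly on the skin side. Of 28 antigen presentation genes 26 were called toward skin and none toward brain (median -3.16), of 34 interferon response genes 25 and none (median -3.28), of 31 lymphocyte genes 23 and 2 (median -2.93), and of 20 neutrophil genes 12 and none (median -2.19). The invariant chain gene cd74a, of MHC class II loading, had 375 to 626 CPM in brain (median 424), against 1058 to 3007 CPM in skin (median 2375), and b2m, the light chain of MHC class I, had 84.9 to 163 CPM in brain (median 117), against 689 to 1993 CPM in skin (median 1799). The T cell co-receptor gene cd8a differed by -5.89 ± 0.38, the immunoproteasome gene psmb8 by -4.92 ± 0.24, and the antiviral gene isg15 had 0.613 to 7.41 CPM in brain (median 2.64), against 12.2 to 70.6 CPM in skin (median 49.2). In the 36-month fish isg15 differed by -1.28 and b2m by -2.45, and the difference between ages was not tested. The interferon pathway genes stat1a at -0.67 ± 0.12 and trim25 at -0.82 ± 0.08 were not called past 2-fold.

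Macrophage and microglia genes were divided more evenly, with 17 of 36 called toward skin, 7 toward brain and a median of -1.14, beside 24.8%, 24.4% and 0.08 for all genes. Toward skin were apoeb, an apolipoprotein of phagocytes, with 227 to 372 CPM in brain (median 313), against 1432 to 2196 CPM in skin (median 1683), CD68 at -3.55 ± 0.16 and c1qb at -3.11 ± 0.11. Toward brain were the chemokine gene ccl34b.1 at 4.79 ± 0.16, havcr1 at 1.54 ± 0.14 and csf1rb at 1.45 ± 0.17, while its copy csf1ra was higher in skin at -1.39 ± 0.12. Both copies encode the receptor for colony-stimulating factor 1 that macrophages and microglia need, and csf1ra also serves xanthophores. The pan-macrophage gene mpeg1 at -0.90 ± 0.11 was not called past 2-fold.

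Vessel genes had no common direction, 11 of 39 called toward brain, 8 toward skin and a median of 0.20, near the 24.4%, 24.8% and 0.08 of all genes. The endothelial genes cdh5 at 0.38 ± 0.25, kdrl at 0.84 ± 0.17 and tie1 at -0.01 ± 0.10 were not called. Among those called toward brain, the glucose transporter gene slc2a1a, of the blood-brain barrier, had 97.8 to 155 CPM in brain (median 116), against 0.0778 to 0.601 CPM in skin (median 0.152), the thyroid hormone transporter gene slco1c1 differed by 3.04 ± 0.15 and mfsd2aa, of lipid transport across that barrier, by 2.82 ± 0.27. Its copy mfsd2ab, at -0.08, was not called and overlapped, with 59.7 to 112 CPM in brain, against 50.6 to 235 CPM in skin. Toward skin were the lymphatic gene lyve1a at -5.35 ± 0.23 and plvapa, of leaky vessels, at -4.61 ± 0.43, and the pump gene abcb5 with 0.491 to 2.95 CPM in brain (median 1.43), against 780.4 to 2267 CPM in skin (median 1937). Haemoglobin genes overlapped between the tissues: hbaa1 had 448 to 887 CPM in brain (median 621), against 105 to 722 CPM in skin (median 189), and skin159 reached the brain range. Of 17 erythrocyte genes 3 were called toward brain and 2 toward skin, and the brain number ran from 1 to 7 with 1 fish left out, the 7 being without brain159 and skin159.

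Ribosomal protein genes differed in near unison. Of 81 tested genes 80 were called toward skin and 1 toward brain, their median was -2.19, and summed they took 1.72 to 1.95% of brain counts against 6.16 to 8.03% of skin counts. The small-subunit gene rps14 had 244 to 273 CPM in brain (median 256), against 940.4 to 1381 CPM in skin (median 1179), a log2 fold change of -2.18 ± 0.09, and rpl35, of the large subunit, -2.05 ± 0.10. The exception was rps8b at 2.02 ± 0.17, whose copy rps8a stood at -2.36 ± 0.10. With library totals alone as scaling, which moved the median of all genes to 0.31, the ribosomal median was -1.96.

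Glycolysis genes had members on both sides. They were called toward brain for 16 of 33 and toward skin for 10, with a median of 1.25. Aldolase C, aldocb, of neurons and glia, had 2329.9 to 2685 CPM in brain (median 2423), against 18.3 to 43.7 CPM in skin (median 33.1), and neuronal enolase, eno2, differed by 9.47 ± 0.31, as did aldoca by 10.35 ± 0.64. Toward skin were muscle forms, among them pkmb at -8.09 ± 0.54, pfkma at -5.78 ± 0.20, aldoab at -5.29 ± 0.34 and eno3 at -4.54 ± 0.21. The glyceraldehyde phosphate dehydrogenase genes were opposed, gapdhs with 1931 to 2426 CPM in brain (median 2113), against 405 to 514 CPM in skin (median 451) and gapdh at -7.75 ± 0.42.

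Respiratory chain genes were closer between brain and skin, with 69 of 79 not called past 2-fold, 8 called toward brain, 2 toward skin and a median of 0.37. The 2 were cox6a2 at -5.69 ± 0.25 and cox7a1 at -3.86 ± 0.26, muscle forms of cytochrome c oxidase subunits in mammals, whose counterparts cox6a1 at 1.38 ± 0.08 and cox7a2 at 2.01 ± 0.10 were higher in brain. The furthest toward brain were ndufa4 at 7.94 ± 0.35 and sdhda at 6.88 ± 0.63, whose copy sdhdb stood at 0.61 ± 0.09. None of the 13 mitochondrially encoded mRNAs was called past 2-fold, although 9 were higher in brain at adjusted p under 0.05 with no size required. The oxidase subunit gene mt-co1 had 23149 to 33575 CPM in brain (median 28756), against 15669.9 to 31357 CPM in skin (median 26796), and the 2 ranges overlapped.

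Clock genes, known to cycle in many fish tissues, were called toward brain for 9 of 48 and toward skin for 5, with a median of 0.40. Both numbers lay below the 24.4% and 24.8% of all genes. Toward brain were rorb at 3.66 ± 0.20 and csnk1e at 3.35 ± 0.10, and toward skin the light-induced photolyase relative cry5 at -2.61 ± 0.24 and ciarta at -2.42 ± 0.32. The core genes per1b at -0.04 ± 0.14, per2 at -0.05 ± 0.15 and nr1d1 at -0.05 ± 0.20 were not called, and the hour of sampling is not given in the labels.

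Of 54 proliferation genes 17 were called toward skin and 1 toward brain, with a median of -1.22, beside 24.8%, 24.4% and 0.08 for all genes. The number toward skin was thus not far from the share of all genes, but 49 of the 54 estimates lay below 0. At adjusted p under 0.05 with no size required, edgeR called 35 higher in skin and 1 higher in brain. The shares of all genes by that rule were 37.6% and 40.4%. The replication licensing genes mcm6 at -2.53 ± 0.23 and mcm2 at -2.35 ± 0.24 were called, and the mitotic genes ccnb1 at -0.78 ± 0.64 and top2a at -1.12 ± 0.44 were not. The library skin158, with its testis transcripts, held 0.233% of counts in this list against 0.0744 to 0.0930% in the other skins. Without brain158 and skin158 the list had 16 genes called toward skin, and the median was -0.90. There mcm6 stood at -2.54 ± 0.26, mcm2 at -2.26 ± 0.22, ccnb1 at -0.29 ± 0.35 and top2a at -0.75 ± 0.19. With the fish of skin157 left out as well, 21 were called toward skin.

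The testis and motile cilia lists depended on that 1 skin. With it, 4 of 32 testis genes were called toward brain and 3 toward skin, and without it 12 and 3. These 32 are the members, of 60 found, that passed the filter on low counts, which a gene high in 1 library alone cannot pass. For motile cilia, whose genes serve both sperm tails and the ciliated lining of brain ventricles, 4 of 56 were called toward brain and 3 toward skin with brain158 and skin158, and 36 and 3 without them. The median was 1.69 without it, against 1.22 with it. Summed, cilia genes took 0.0289 to 0.0349% of counts in the 6 brains, against 0.0161 to 0.0228% in the 5 other skins. The meiotic gene sycp1 remained higher in skin, at -6.16 ± 0.76 with brain158 and skin158 and -5.35 without them, and dkk3a, of the Dickkopf family of secreted proteins, was higher in brain at 9.33 ± 0.47. Hepatocyte genes depended on skin157 in the same manner: of 35 tested, 2 were called toward brain and 14 toward skin with it, and 7 and 15 without it, and the median was -0.54 without it, against -1.98 with it. The direction of fabp10a stayed, at -5.91 ± 1.65 with brain157 and skin157 and -4.63 ± 0.85 without them.

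Hox genes, which record position along the body axis, sorted by their paralogue group, the order of the genes within a cluster. In groups 9 to 13, active in the trunk and tail, 19 of 20 tested genes were called toward skin and none toward brain, with a median of -8.26. These genes were near 0 in brain, so nearly all passed the filter on low counts through their level in skin. Their summed level was 0.449 to 1.04 RPKM in brain (median 0.560), against 55.4 to 87.4 RPKM in skin (median 65.1). Of the 23 genes of these groups 6 had no count in any brain. For these, 3 counts per library were taken as the floor, and hoxc10a was at least 170-fold, hoxc11a at least 81.0-fold and hoxd11a at least 71.5-fold higher in skin. With all 6 at their bound, the median log2 fold change of groups 9 to 13 was -6.60 rather than -8.26. In groups 4 to 8, 6 of 16 genes were called toward brain and 4 toward skin, and the summed level was 35.0 to 83.2 RPKM in brain (median 67.4), against 25.5 to 36.9 RPKM in skin (median 31.4). Group 5 stood out in brain, summing to a median of 37.0 RPKM there and 2.97 RPKM in skin: hoxb5a had 11.2 to 26.4 CPM in brain (median 21.9), against 0.568 to 1.45 CPM in skin (median 0.800), a log2 fold change of 4.62 ± 0.30, and hoxb5b differed by 7.33 ± 0.67. Group 6 was divided, hoxb6b at 5.71 ± 0.67 and hoxc6a at -1.52 ± 0.25, which was not called without brain157 and skin157 (adjusted p = 0.0521, edgeR). In groups 1 to 3, of the hindbrain, 1 of 8 genes was called toward brain and 2 toward skin.

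**Figure D4:**
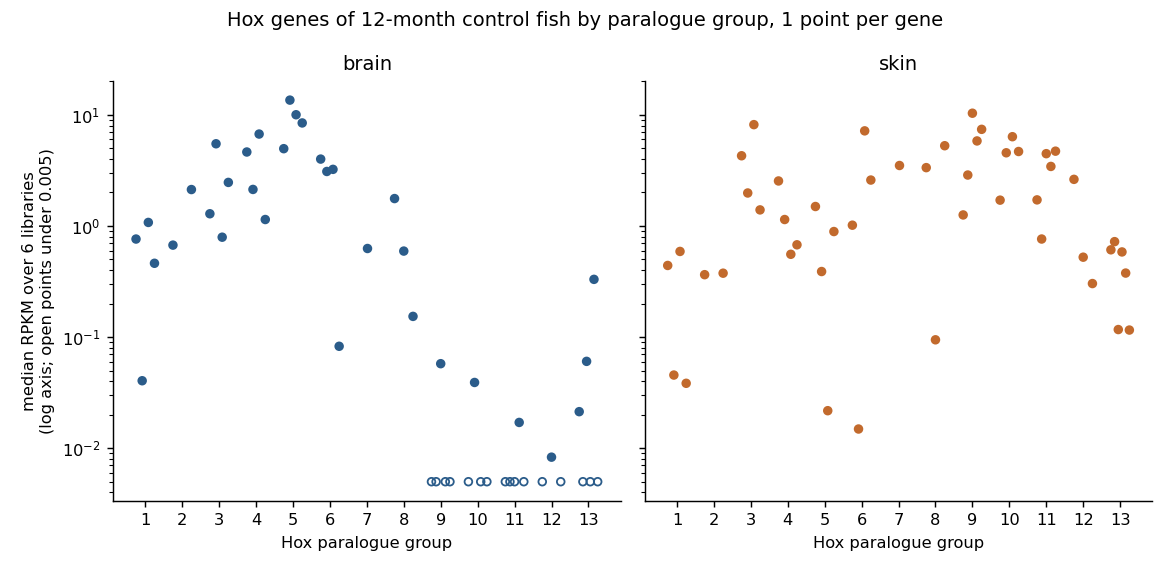
Median RPKM (log axis) of each Hox gene over the 6 brain libraries (left) and the 6 skin libraries (right) by paralogue group, 1 point per gene, with medians under 0.005 drawn open. Groups 9 to 13 are near 0 in brain and present in skin, and group 5 is the highest in brain.

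Zebrafish carry many gene pairs from a whole-genome duplication in the fish lineage, whose members often end in a and b. Of 1578 pairs of symbols that differ only in that last letter with both members tested, 511 (32.4%) had both members called the same way, 317 toward brain and 194 toward skin, and 113 (7.16%) were called in opposite directions. In 572 only 1 member was called and in 382 neither. Over all members of these pairs, 33.97% were called toward brain and 23.70% toward skin. Some pairs are not duplicates but different genes that share a name, such as fam110a and fam110b. The widest split among well expressed pairs was rab42a, a small GTPase with 12.6 to 29.7 CPM in brain (median 23.3), against 0.0389 to 0.200 CPM in skin (median 0.0580), and rab42b with 0.396 to 0.803 CPM in brain (median 0.530), against 24.3 to 52.4 CPM in skin (median 35.8). The glycogen phosphorylase gene pygmb had 299 to 419.9 CPM in brain (median 341), against 3.07 to 16.9 CPM in skin (median 8.71), and pygma 0.216 to 0.481 CPM in brain (median 0.265), against 62.9 to 214 CPM in skin (median 101). The lipid transfer protein gene pitpnab had 98.2 to 135 CPM in brain (median 113), against 0.402 to 2.2 CPM in skin (median 0.682), and pitpnaa 2.25 to 3.64 CPM in brain (median 3.22), against 78.9 to 131 CPM in skin (median 99.4). In each pair the member high in one tissue reached at most 16.9 CPM in the other. The bicarbonate transporter gene slc4a4a, of glia, differed by 7.72 ± 0.72 and slc4a4b by -3.57 ± 0.36, and by 8.24 and -3.98 without brain158 and skin158. The laminin receptor gene itga6b, of hemidesmosomes, had 10.8 to 19.0 CPM in brain (median 16.3), against 844 to 1943 CPM in skin (median 1449), against 3.52 ± 0.15 on the log2 scale for itga6a, and kidins220b differed by 3.65 ± 0.08 with kidins220a at -3.74 ± 0.25. Like-named copies can share reads, so the smaller value of a pair is uncertain.

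**Figure D5:**
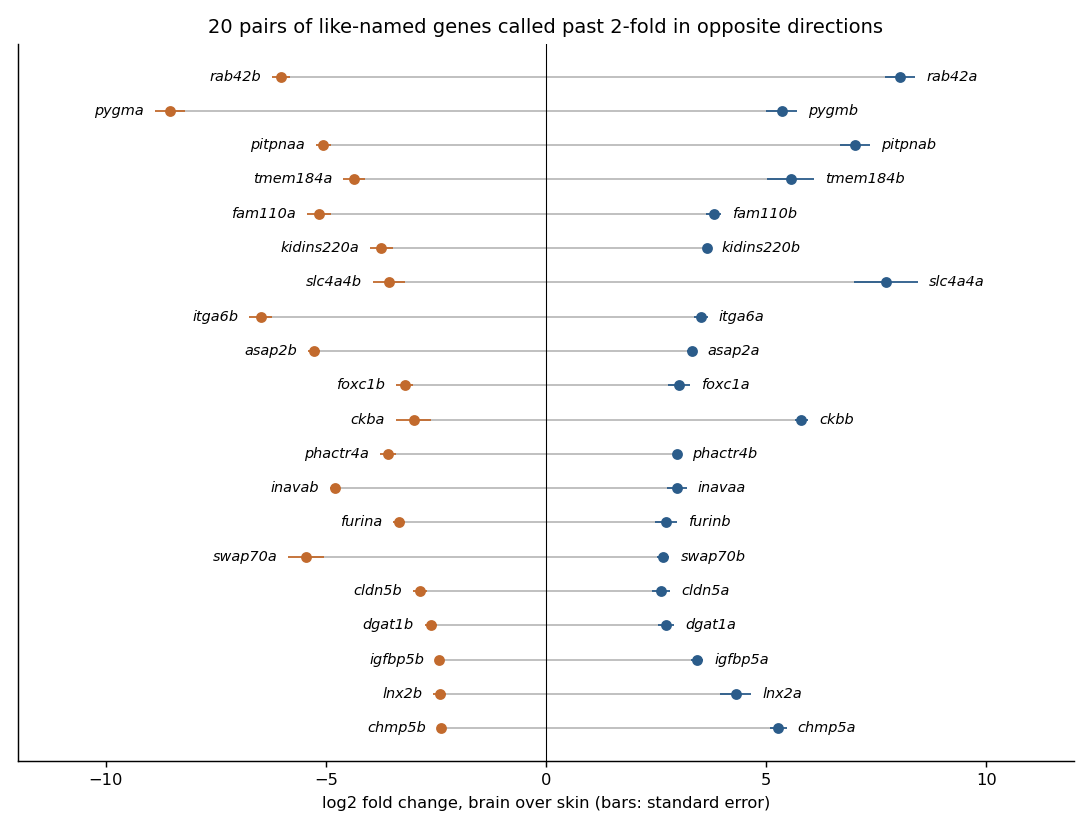
Log2 fold change, brain over skin, with standard error, of both members of 20 like-named pairs called past 2-fold in opposite directions, ordered by the smaller absolute change. The 20 were taken from 73 such pairs with both members at 5 CPM or more.

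The brain to skin difference was also compared between fish kept 3 and 8 weeks, which differ in time in the tank and may differ in the day of sampling. No gene (0% of 22435) passed edgeR's test of that difference, whose smallest adjusted p was 0.215, although 2174 genes were at an unadjusted p under 0.05. DESeq2 called 263 and voom 0. The lowest p belonged to fbxo32, a ubiquitin ligase gene of muscle wasting in mammals, with 8.34 ± 0.724 CPM in brain and 48.5 ± 5.28 CPM in skin at 8 weeks, against 6.67 ± 2.11 and 11.2 ± 3.10 CPM at 3 weeks (mean ± SD over 3 fish). The protease gene adamts1 had 5.90 ± 1.3 CPM in brain and 10.9 ± 2.95 CPM in skin at 8 weeks, against 6.95 ± 3.70 and 44.2 ± 19.8 CPM at 3 weeks. In both genes it was skin that differed more, and neither passed the adjusted threshold.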

How the data were processed

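RNA came from a phenol-based extraction and a TruSeq RNA library kit, according to the labels. Counts per gene are whole numbers and not normalised, as the authors deposited them beside a table of RPKM. The submitters' processing notes name CASAVA 1.8.2. Which aligner, counting program, strand setting and genome build were used is not given in these sources. Tests used the counts and levels between genes the RPKM. Of 32677 genes, 22435 passed filterByExpr (minimum count 10) and were fitted in edgeR 4.0.16 (R 4.3.3) with tissue and fish as terms, TMM scaling and robust quasi-likelihood dispersions. Differences past 2-fold used glmTreat, with Benjamini-Hochberg adjustment over all tested genes and a threshold of 0.05. No library was a copy of another of its tissue and time (chi-square per gene of 17.53 to 182.4 over 12 pairs).

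Brain and skin of a number had positive but low correlations of their deviations (0.0336 to 0.263 over 5000 genes, in 5 of 6 above those with other fish of the same time), and the labels do not state that the number is a fish. P-values measure the spread between these fish only. The members and the 38 gene lists were chosen with earlier results of these data known, and the hepatocyte list after this comparison was seen. Named genes were first the 12 largest differences each way among called genes with a mean of at least 10 CPM, the same direction in all 6 fish and a plain symbol. To these were added the 3 members of highest mean RPKM in each list, the 10 genes of highest RPKM in each tissue, 8 opposed pairs, the 8 lowest p between times and the 8 testis genes highest in skin158. Other genes were chosen after their values were seen, and not every gene under the rule is described. Alternatives were RLE size factors, library totals alone, no filter, DESeq2 1.42.0, voom of limma 3.58.1, no replicate block, all 48 brain and skin libraries, each sampling time alone and each fish left out. The test was also tried on simulated counts with few changed genes, balanced in direction, and with no difference between fish. Because that setting differs from these data, the trial does not bear on the scaling or the fish block used here.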

Additional observations from a re-analysis of the deposited data

Results flagged for a closer look

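Over the 6 fish, 244 values were screened for a fish far from the other 5 (a gap beyond Dixon's critical value), and 40 met that rule, 28 of them in the fish of brain158 and skin158 (22 brain minus skin differences and 6 shares of counts in 1 of its libraries). Chance gives about 1 in 20 only for independent values that were not chosen by their level in a fish. The screened genes include testis genes named because they were highest in skin158, among them sycp1, piwil1, star and tdrd6. Values from the same libraries also depend on one another. The numbers 40 and 28 can therefore not be judged against that rate. Values below are brain minus skin differences in log2 CPM unless a percent of counts is named.

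Genes of testis stood apart in skin158. The difference was -10.19 for the meiotic gene sycp1 (-6.05 to -4.60 in the other fish), -6.88 for piwil1 (0.56 to 2.99), -6.60 for the steroid carrier gene star (-0.11 to 3.11), -6.57 for tdrd6 (-0.44 to 0.58) and -6.08 for gsdf (0.85 to 2.36). The chromatin gene hmgb2b, of dividing cells, was at -0.93 (0.07 to 0.57). In that skin the testis list took 0.323% of counts, motile cilia 0.270% (0.0161 to 0.0228% in the other skins), cell proliferation 0.233% (0.0744 to 0.0930%) and GABA and glycine receptors 0.00357% (0.00159 to 0.00202%).

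In brain158, genes of the pituitary list took 0.117% and photoreceptor genes 0.0743% of counts. The hormone subunit gene cga differed from skin by 7.95 (0.40 to 2.92 in the other fish), the phototransduction gene gngt1 by 7.35 (2.12 to 3.61) and asmt, of melatonin synthesis, by 7.08 (-0.23 to 0.86).

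Of the skin-high genes that met the rule in this fish, 9 were less far apart between brain and skin than in the others. The difference was -6.72 for tp63 (-8.12 to -7.68), -6.11 for icn (-7.25 to -6.84), -3.28 for si:dkey-238c7.12 (-4.10 to -3.88), -3.13 for ptgdsb.2 (-4.49 to -4.0), -3.11 for tmem184a (-4.80 to -4.28), -2.22 for cd74b (-3.32 to -3.01), -1.44 for cd74a (-2.55 to -2.20), -1.23 for tuba8l2 (-1.73 to -1.55) and -0.35 for the clock-output gene tefa (-1.33 to -1.0). The proteoglycan gene srgn went the other way at -2.74 (-1.74 to -1.40). The TMM factor of skin158 was 1.095, against 0.859 to 0.924 in the other skins. Relative to library totals, this lowers every CPM of skin158 compared with those skins. Its part in the 9 smaller differences was not tested. Of brain-high genes, 3 were less far apart: kcnc3a at 7.71 (9.18 to 9.98), slc4a4a at 4.39 (7.88 to 9.09) and tmem184b at 3.08 (5.32 to 6.09), each with its highest skin level in skin158.

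In brain183 minus skin183 muscle genes were closer between the tissues, with ckma at -7.00 (-11.13 to -9.95), atp2a1l at -6.66 (-13.09 to -11.02), pvalb4 at -6.34 (-11.01 to -9.47), myhc4 at -6.13 (-13.95 to -11.40) and actc1b at -6.11 (-11.08 to -9.40). The protease gene ctsk was at -5.70 there (-4.90 to -4.49). The scale gene scpp7 was at -7.21 in brain159 minus skin159 (-12.60 to -11.19). In brain184 minus skin184, epd was at 10.77 (13.19 to 14.44) and neurod at 8.62 (11.35 to 12.71), both with their highest skin level in that fish. Other brain-high genes were also highest in skin184 among skins, such as sncb at 6.00 CPM (0.117 to 2.00 CPM in the others) and snap25b at 3.59 CPM (0.114 to 0.803 CPM). By contrast, gad1b and kcnc3a were highest in skin158. Summed pan-neuronal genes took 0.0665% of counts in skin184 and 0.0732% in skin158. In brain182 minus skin182, sox10 was at 2.35 (1.45 to 1.75). Mucous cell and ionocyte genes took 0.170% of counts in brain159 (0.185 to 0.190% in the others), and ribosomal protein genes 1.95% in brain157 (1.72 to 1.79%).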

How the results depend on the processing

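The number of genes called past 2-fold, 11039 with the replicate block for fish, was 10958 without it and 10235 to 12130 over scaling, filter, tool and the use of all 48 libraries. It was 9231 in the 3-week fish and 11331 in the 8-week fish, and with 1 fish left out 10665 to 11477. Without brain157, skin157, brain158 and skin158 together, a setting chosen after seeing the data, it was 11455. Library totals alone, which moved the median of all genes by 0.23 on the log2 scale, gave 10303 genes higher in brain and 7344 higher in skin at adjusted p under 0.05, beside 9066 and 8433 with TMM. The difference between sampling times had 0 calls in edgeR with the block and with each fish left out, 9 without the replicate block and 263 in DESeq2, and the cause was not tested. Opposed like-named pairs numbered 113, 107 to 121 with 1 fish left out, and 302 with no size threshold, which is a looser rule by construction. The testis share of skin158, 0.323%, was 0.226% over germ cell members alone. For single genes, 2618 values kept their side of the threshold, 44 came past it and 26 fell short of it, and no called value changed sign. Of list medians 12 moved by more than the spread between fish. The testis list turned to -1.09 without the block and -0.47 in the 3-week fish, and motile cilia to -0.16 without the block, and in these skin158 took part. Genes at under about 1 CPM in a tissue have fold changes that rest on few counts.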

Other observations

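Groups of genes sharing a symbol stem were counted over all genes, for the 109 stems with at least 15 tested members, and those named here were chosen after their values were seen. Of 54 protocadherin genes (pcdh), adhesion molecules of neurons, 51 were called higher in brain and none in skin, with a median log2 fold change of 4.4, beside 24.4% of all genes called higher in brain. Synaptotagmins (syt) followed with 19 of 22 toward brain and 1 toward skin, calcium channel subunits (cacna) with 14 and 2 of 17, POU transcription factors (pou) with 11 and 1 of 15, and reticulons (rtn) with 9 and 0 of 15. Toward skin were families of immune defence, with 16 of 17 genes of the btr stem, 46 of 62 of the ftr stem, both of the TRIM type in fish, and 13 of 16 chemokines (ccl), while 0, 1 and 1 genes of these were called toward brain. Caspases (casp), of cell death and inflammation, had 11 of 15 toward skin and none toward brain, and annexins (anxa) 2 of 16 toward brain and 11 toward skin. Of all genes, 24.8% were called toward skin.

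Some other families had no calls. No gene was called past 2-fold among 44 mitochondrial ribosomal proteins of the mrpl stem, 18 nucleoporins (nup), 16 proteasome regulatory subunits (psmd) and 15 autophagy genes (atg), in contrast to the 43 of 44 cytosolic rpl genes called toward skin. Median log2 fold changes were 0.45 for mrpl, -0.35 for nup, 0.04 for psmd and -0.03 for atg, beside 0.08 for all genes. Smaller shifts than 2-fold are thus not excluded. Over all genes, 49.2% were called in either direction. These numbers come from edgeR's test past 2-fold over all genes, and a family's members are not independent of one another.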
